A study of Homo sapiens with 9 samples.

Results

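The ZSCAN and ZKSCAN genes encode zinc finger proteins that carry a SCAN domain, and they were followed here in H1 human embryonic stem cells with and without a HERVHlin knockout. Members were chosen by name alone, as the protein-coding rows whose symbol is ZSCAN or ZKSCAN followed by a number. This gave 28 genes, 21 named ZSCAN and 7 named ZKSCAN, of 60829 rows in the deposited table. Another 7 rows with such names were long noncoding RNAs or pseudogenes and are not members.

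The SCAN domain is a short leucine-rich module through which these proteins pair with themselves or with each other, and it is related in sequence to the capsid of retrovirus-like elements. C2H2 zinc fingers at the other end of the protein bind DNA. ZKSCAN proteins also have a KRAB box, the module through which many zinc finger proteins recruit the corepressor TRIM28 to silence retroelements and other targets. In pluripotent cells the family is best known for ZSCAN10, a transcription factor of the pluripotency network, and for ZSCAN4, a gene of the early cleavage-stage embryo that is linked to telomere maintenance.

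Total RNA was sequenced after depletion of ribosomal RNA from H1, a widely used human embryonic stem cell line, kept in a stem cell medium. The control clone (labelled chrX-ctrl_H1, genotype WT) gave 4 libraries, and the HERVHlin knockout clone (chrX-KO_H1, genotype knock out), with a locus on chromosome X removed, gave 5. HERVH is an endogenous retrovirus family transcribed in human pluripotent cells. Each group is 1 clone sampled at successive passages, and the series design calls these passages technical replicates, where the sample titles say biol_rep. The error behind each p-value is thus variation between passages of 1 clone, and a difference between the clones cannot be told apart from clonal variation. Both groups carry the treatment label "differentiated cells".

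Recovered reads ran from 19838682 to 31192630 per library, of which protein-coding genes took 26.3% in knockout 1 to 50.8% in control 3. The 3 rows that the authors marked as knocked out summed to 3349 to 8405 normalized counts in the control libraries and to 1283 to 2039.6 in the knockout libraries. All 8 pluripotency markers looked up, POU5F1 and NANOG among them, were measured in every library. Their summed normalized counts were 32198 to 70614 in the control libraries and 26792 to 41558 in the knockout libraries. Each had a lower mean in the knockout clone, as did all markers of other cell types looked up but COL3A1, PAX6 and SOX1. Of 14752 tested protein-coding rows, 9355 had a negative log2 fold change (median -0.09). Of the 8 pluripotency markers UTF1 differed most, at 368 in control and 93.7 in knockout libraries without overlap (log2 fold change -1.98, SE 0.38, adjusted p by limma = 0.068), where 3.95% of all rows do not overlap. The 3 endoderm markers SOX17, FOXA2 and GATA6 summed to at most 3.19 normalized counts and the 4 mesendoderm markers to at most 35.7. Neural markers summed to 339 to 877 normalized counts, nearly all from NES. Trophectoderm and amnion markers summed to 101 to 223, nearly all from KRT7. Fibroblast markers summed to 2860 to 5804, mostly from THY1 (1960 to 4217), then COL1A1 (296 to 935) and COL1A2 (487 to 802). COL3A1 was at most 8.15 and LUM at most 1.82. In bulk RNA, fewer cells of a type and less RNA per cell cannot be told apart.

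All values below are normalized counts, that is, reads per gene scaled by the authors with a size factor for each library. Of the 28 genes, 25 had enough reads to be tested, and none of the 25 passed limma at an adjusted p under 0.05, where 0.54% of the 27777 rows tested passed. With the replicate number as a block it was 0 as well (2 at an unadjusted p under 0.05, with 0.155% of all rows called). One gene, ZSCAN23, had an unadjusted p under 0.05, against 8.63% of all rows. The count of members past the threshold was also 0 with edgeR (2 at an unadjusted p under 0.05, with 0.544% of all rows called) and with DESeq2 (2 unadjusted, 2.14% of all rows called). In the authors' deposited table, 0 of the 26 members with an adjusted p were past 0.05 (2.05% of rows were), and the smallest was 0.31 for ZSCAN23. A count of 0 among 25 is near the background share and is no result about the family by itself.

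The intervals around the differences show how closely each was measured. On the log2 scale the 95% interval of knockout over control lay within a 2-fold change in either direction for 24 of the 25 genes, against 48.9% of all rows and 83.7% of the 447 tested ZNF-named genes. For 15 of the 25 it lay within 1.5-fold, against 15.3% of all rows and 39.8% of the ZNF-named genes. The exception to the 2-fold limit was ZSCAN1, the least abundant tested gene. Of 14752 tested protein-coding rows, 10818 lay within 2-fold and 3958 within 1.5-fold. For the 28 tested SCAN-domain genes with other names these counts were 25 and 10. The median SE was 0.21 for the members, 0.31 for all rows, 0.24 for protein-coding rows and 0.20 for the ZNF-named genes. No share was taken over rows matched for level, so these shares are no result about the family. These intervals are per gene and cover only the spread between passages.

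**Figure D1:**
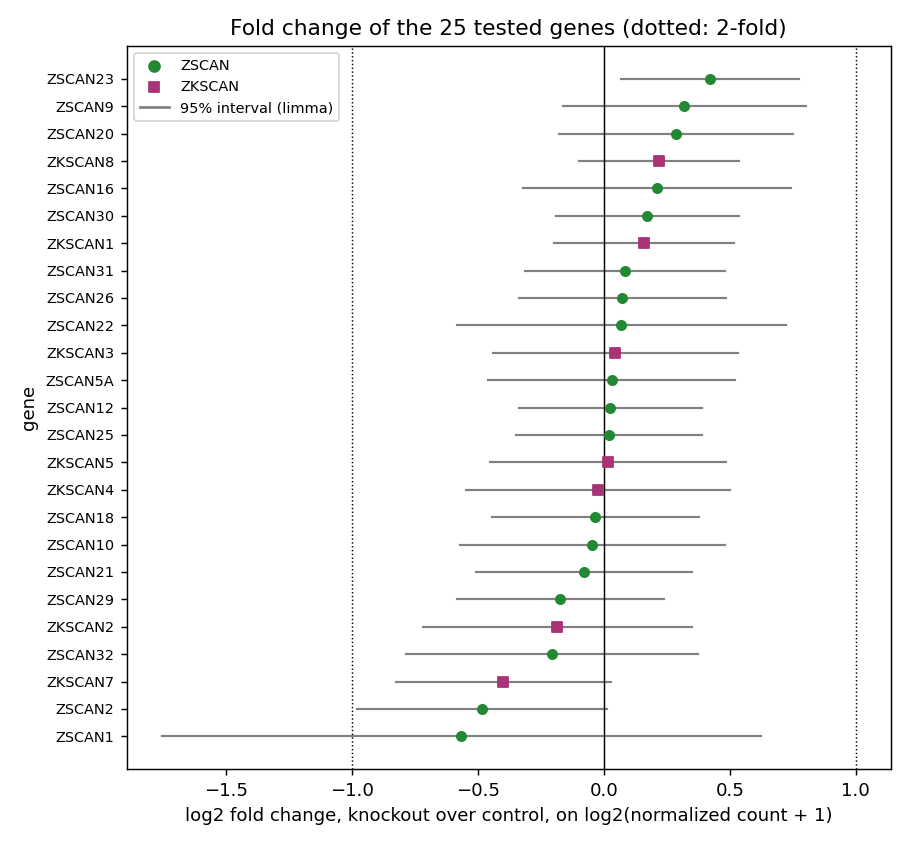
Log2 fold change of knockout over control for the 25 tested genes (points, ZSCAN as circles and ZKSCAN as squares) with limma's 95% intervals (lines), on log2(normalized count + 1). The dotted lines mark 2-fold, and only the interval of ZSCAN1 crosses one of them.

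As a group the family was centred near 0. The median log2 fold change was 0.03 over the 25 tested members, beside 0.01 over all tested rows, -0.05 over the ZNF-named genes and -0.09 over 14752 protein-coding rows. Of the members, 15 had a positive and 10 a negative log2 fold change, and they ranged from -0.57 to 0.42. The ZSCAN-named genes had a median of 0.03 (11 of 18 positive) and the ZKSCAN-named genes one of 0.02 (4 of 7 positive). Summed over the 28 genes, control libraries held on average 5242 ± 689 normalized counts (SD, n = 4) and knockout libraries 5123 ± 413 (SD, n = 5), a difference smaller than either SD.

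ZSCAN10, the pluripotency factor of the family, had by far its highest level, per length as well as in total (chromosome 16, 3088890 to 3099317, minus strand, GRCh38). It measured 958, 1852, 2149 and 1729 normalized counts in controls 1 to 4 and 1735, 1429.6, 1586, 1262 and 1813 in knockouts 1 to 5. Control 1 was the lowest and control 3 the highest of all 9 libraries, so the control clone spanned the whole range of the knockout clone. The means were 1672 ± 507 (SD, n = 4) and 1565 ± 224 (SD, n = 5), with a log2 fold change of -0.05 (SE 0.23, 95% interval -0.57 to 0.48, adjusted p by limma = 0.96). Its sign turned in 6 of 20 other settings, among them quantile normalization (0.15) and scaling on protein-coding rows (0.06). ZSCAN10 alone gave 31.9% of all family counts in control libraries and 30.6% in knockout libraries, not corrected for gene length.

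Per length of merged exons, the mean level of ZSCAN10 over the 9 libraries was 486 normalized counts per kb. ZSCAN21 came next at 91.3 per kb, then ZSCAN16 at 69.0 and ZSCAN2 at 62.2, and the median of the 25 tested genes was 28.3. At the low end stood ZSCAN20 (7.55 per kb), ZSCAN22 (5.23) and ZSCAN1 (4.37). Exons of ZSCAN21 overlap those of the antisense gene ZNF3 over 41.1% of their length, and the sources used here do not give whether counting used the strand, so its level may include reads of ZNF3.

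ZSCAN4, the cleavage-stage gene, was at the edge of detection in both clones (chromosome 19, 57668935 to 57679152, plus strand). It had 3, 1, 1 and 1 reads in controls 1 to 4 and 3, 3, 1, 3 and 5 reads in knockouts 1 to 5, or 1.64 ± 1.08 (SD, n = 4) and 2.67 ± 1.00 (SD, n = 5) normalized counts. The groups overlapped, and the gene did not pass the filter on low values. With no such filter limma put the difference at 0.50 on the log2 scale (SE 0.41, adjusted p = 0.83). ZSCAN5B and ZSCAN5C, the other genes not tested, had 1 read each in all 9 libraries, both in the knockout clone. For the 4 control libraries a count of 0 allows up to 3 reads, so no fold is given. ZSCAN5B, ZSCAN5C and the more abundant ZSCAN5A (113 ± 29.3 and 115 ± 22.0 normalized counts) are close copies in 1 cluster, and how reads were divided among them was not measured.

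Most other genes of the cleavage-stage embryo had too few reads to be tested. Of 26 such genes on the list 25 had a row and 4 were tested, and 0 passed with limma (1 unadjusted) or edgeR. CCNA1, a testis and embryo cyclin, measured 26.1 ± 5.37 in control and 9.32 ± 3.21 in knockout libraries without overlap (log2 fold change -1.44, SE 0.36, adjusted p by limma = 0.17), where 3.95% of all rows do not overlap. DESeq2 called it, as the single gene of this list, and the authors' deposited table also has it past the threshold (adjusted p = 0.00975). ZNF280A, of the same list, went the other way, at 1.17 ± 1.70 in control and 7.14 ± 2.76 in knockout libraries. It was too low to be tested and the clones overlapped. The authors' deposited table gives it a log2 fold change of 2.49, not past the threshold (adjusted p = 0.19). SLC34A2, a phosphate transporter, measured 55.0 ± 15 and 50.9 ± 7.66 normalized counts and ARGFX, a homeobox gene, 19.1 ± 6.14 and 21.7 ± 4.33, at log2 fold changes of -0.08 and 0.21. LEUTX, KDM4E and MBD3L2, which mark this stage, had 0 reads in all 9 libraries, and TPRX1 and KLF17 averaged under 1 normalized count in each clone. DUX4, a multicopy activator of this stage whose reads can be shared among its copies, measured 39.3, 7.77, 0.912 and 44.3 normalized counts in controls 1 to 4 and 20.1 to 53.8 in the knockout libraries. Its log2 fold change of 1.43 (SE 0.86, adjusted p by limma = 0.71) was taken on log values, in which controls 2 and 3 lie far below controls 1 and 4, and the authors' deposited table gives 0.66.

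The DNA ahead of the start site is shown for 3 genes at very different levels, namely the gene with the highest level, the cleavage-stage gene ZSCAN4 and the tested gene with the lowest level. They are the RefSeq reference sequence (GRCh38.p14) before the start, 5′ to 3′ on the gene's strand, with CpG dinucleotides in capitals. ZSCAN10 (chr16:3099318-3099544, minus strand, up to the first annotated exon), has 3 CpGs, and ZSCAN4 (chr19:57668685-57668934, plus strand) has 2. ZSCAN1 (chr19:58033775-58034024, plus strand) has 33.
ZSCAN10: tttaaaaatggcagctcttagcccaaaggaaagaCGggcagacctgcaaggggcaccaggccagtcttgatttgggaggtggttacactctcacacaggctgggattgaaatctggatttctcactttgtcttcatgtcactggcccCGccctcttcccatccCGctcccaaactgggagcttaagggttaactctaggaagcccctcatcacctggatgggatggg
ZSCAN4: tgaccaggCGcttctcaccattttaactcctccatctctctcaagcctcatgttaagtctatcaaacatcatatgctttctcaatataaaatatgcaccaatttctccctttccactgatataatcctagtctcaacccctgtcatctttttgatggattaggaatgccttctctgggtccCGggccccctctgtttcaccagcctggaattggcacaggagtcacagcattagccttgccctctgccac
ZSCAN1: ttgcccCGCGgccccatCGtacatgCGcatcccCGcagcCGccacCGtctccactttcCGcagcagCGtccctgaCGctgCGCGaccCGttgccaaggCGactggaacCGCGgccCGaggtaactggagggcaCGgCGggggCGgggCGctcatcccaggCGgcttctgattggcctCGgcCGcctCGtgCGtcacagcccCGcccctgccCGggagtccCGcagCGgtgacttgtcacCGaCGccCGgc

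In the 250 bases before the start, a CpG-poor stretch thus went with both the highest level in the family and a level of a few reads, and ZSCAN31, also with 3 CpGs, stood at 24.5 normalized counts per kb. ZSCAN5B, with 1 read over all libraries, has 7 CpGs. RefSeq windows matched 24 of the 28 members by symbol, taking the first listed start of each gene. Most of the 24 windows cover part of an annotated exon, of the gene itself or of a neighbour. That of ZKSCAN4 (28259212 to 28259461) covers an exon of NKAPL, whereas GENCODE places ZKSCAN4 only up to 28252224. Of these 24, 20 had an observed over expected CpG ratio above 0.6, against 47.4% of 27305 windows of all genes, and the exceptions were ZKSCAN3, ZSCAN10, ZSCAN31 and ZSCAN4. The GC box GGGCGG, which itself holds a CpG, was found on either strand in 15 of the 24 windows (42.3% of all windows). CCAAT was found in 7 (33.0% of all windows) and TATAAA in 1, that of ZSCAN4 (11.1% of all windows). The windows of all genes were not limited to protein-coding genes, whereas all members are protein-coding, so these shares compare unlike sets. A match is a run of letters and not a measured binding site.

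**Figure D2:**
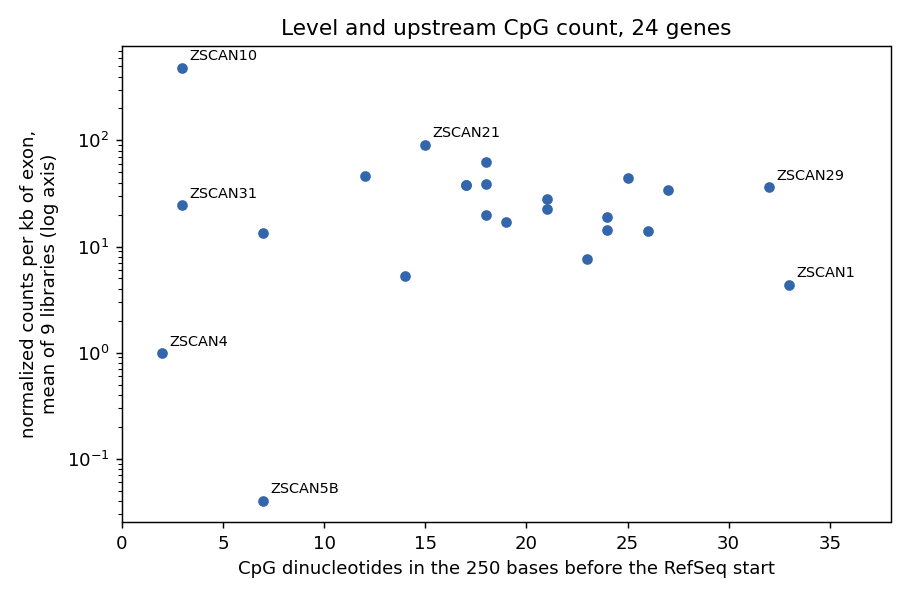
CpG dinucleotides in the 250 bases before the RefSeq start (x axis) against the mean level per kb of exon over the 9 libraries (y axis, log scale) for 24 genes. ZSCAN10 with 3 CpGs stands at 486 normalized counts per kb and ZSCAN4 with 2 at 0.983, while ZSCAN1 with 33 stands at 4.37.

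ZSCAN23 had the largest positive difference (chromosome 6, 28431930 to 28443502, minus strand). It measured 116, 94.8, 87.5 and 121 normalized counts in controls 1 to 4 and 152, 153, 137, 135 and 121.6 in knockouts 1 to 5. Every knockout library lay above every control library, but knockout 5 exceeded control 4 by less than 1 normalized count. It was the 1 of 25 tested members without overlap between the clones, beside 3.95% of all rows (1.35% with the knockout clone higher). The means were 105 ± 16.2 (SD, n = 4) and 139.8 ± 13.3 (SD, n = 5). A log2 fold change of 0.42 (SE 0.16, 95% interval 0.07 to 0.77) did not pass once adjusted over all rows (adjusted p by limma = 0.46).

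ZSCAN9, in the same cluster, measured 207, 110.3, 139 and 149 normalized counts in the control libraries and 212, 199.6, 218, 170.4 and 136 in the knockout libraries. Control 1 was as high as most knockout libraries, and knockout 5 was below 3 of the control libraries (log2 fold change 0.32, SE 0.22, adjusted p by limma = 0.75). The value was 0.18 without control 2 and 0.48 without control 1. ZSCAN20, on chromosome 1, stood at 46.8, 28.0, 32.8 and 36.1 against 49.8, 40.6, 44.2, 42.6 and 39.8 (log2 fold change 0.29, SE 0.21, adjusted p by limma = 0.77). Only control 1 reached the range of the knockout clone, and without control 2 the value was 0.18.

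ZKSCAN8 measured 312, 242, 297 and 227 normalized counts in controls 1 to 4 and 318, 309, 346, 280.3 and 306 in knockouts 1 to 5. The clones overlapped (log2 fold change 0.22, SE 0.14, adjusted p by limma = 0.74), the interval of -0.10 to 0.54 was the narrowest in the family, and the value was 0.14 without control 4. ZSCAN16 stood at 74.4, 79.2, 119 and 65.0 against 93.9, 92.5, 129, 68.0 and 103, with the replicate 3 libraries highest and the replicate 4 libraries lowest in both clones (log2 fold change 0.21, SE 0.24, adjusted p by limma = 0.83). The value was 0.10 without control 4 and 0.39 without control 3. Its antisense RNA ZSCAN16-AS1, whose exons overlap 14.8% of those of ZSCAN16, measured 72.4 ± 13.8 (SD, n = 4) and 92.8 ± 16.2 (SD, n = 5) and did not pass either (log2 fold change 0.36, SE 0.20, adjusted p by limma = 0.69).

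ZSCAN2 had the largest negative difference among the well-measured genes (chromosome 15, 84600986 to 84627796, plus strand). Its values were 241, 454, 480.4 and 292 normalized counts in controls 1 to 4 and 234, 218, 295, 268 and 249.9 in knockouts 1 to 5. Controls 2 and 3 stood apart above all other libraries, whereas controls 1 and 4 lay in the range of the knockout clone. The means were 367 ± 118 (SD, n = 4) and 253 ± 30.0 (SD, n = 5), with a log2 fold change of -0.48 (SE 0.22, 95% interval -0.98 to 0.01, adjusted p by limma = 0.59). It was -0.33 without control 3 and -0.66 without control 1. An antisense RNA, RP11-182J1.3, overlaps 25.1% of the exonic bases of ZSCAN2. It had 0 reads in the control clone and 1.16 normalized counts, or 1 read, in knockout 3 alone.

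ZKSCAN7 measured 112, 79.2, 79.3 and 97.5 normalized counts in the control libraries and 69.0, 54.1, 72.2, 65.8 and 86.2 in the knockout libraries (chromosome 3, 44555193 to 44594173, plus strand). Knockout 5 alone reached the control range. The log2 fold change was -0.40 (SE 0.19, 95% interval -0.83 to 0.03, adjusted p by limma = 0.62). With the replicate number as a block it was -0.48 (adjusted p by limma = 0.41). That is also the value without knockout 5, which has no control of its number, so the block leaves it out of the difference. ZKSCAN7-AS1, which overlaps 2.71% of its exonic bases, stood at -0.19 (SE 0.26).

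ZSCAN1 had few reads, with 8.50, 18.6, 14.6 and 8.13 normalized counts in controls 1 to 4 and 2.87, 14.7, 14.0, 5.23 and 7.37 in knockouts 1 to 5. In both clones replicates 2 and 3 were the high libraries. Its log2 fold change of -0.57 (SE 0.53, adjusted p by limma = 0.81) had an interval of -1.76 to 0.62. It was -0.28 without knockout 1, -0.36 without control 2 and -1.22 with quantile normalization. ZSCAN32 stood at 149, 199, 296 and 139 against 193, 186, 194, 121 and 131 (log2 fold change -0.21, SE 0.26, adjusted p by limma = 0.84). Controls 2 and 3 lay above every knockout library, and without control 3 the log2 fold change was 0.01. AC025283.2, on the other strand, overlaps 72.3% of the exonic bases of ZSCAN32, and LA16c-306E5.2, also on that strand, 17.4%. The reads of ZSCAN32 are therefore uncertain, although LA16c-306E5.2 itself averaged only 4.27 normalized counts.

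ZKSCAN2 measured 74.4, 77.7, 118 and 58.7 in controls and 65.1, 65.4, 96.6, 56.8 and 70.8 in knockouts (log2 fold change -0.19, SE 0.24, adjusted p by limma = 0.84). The highest library of each clone was again replicate 3. ZKSCAN1, known as the host of an abundant circular RNA, stood at 442, 317, 412 and 316 against 384, 459, 482, 368 and 373 (log2 fold change 0.16, SE 0.16, adjusted p by limma = 0.81). That of ZKSCAN1 was 0.09 without control 2 or control 4 and 0.25 without control 1. Gene totals do not separate its circular from its linear RNA. ZSCAN18, known for promoter methylation in tumours, measured 328, 337, 268 and 222 against 317, 346, 271, 239 and 234, ranges that nearly coincide (log2 fold change -0.03, SE 0.18, adjusted p by limma = 0.96).

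The other 12 tested members had log2 fold changes between -0.17 and 0.17 (SE 0.16 to 0.29) and limma adjusted p-values from 0.81 to 0.99. They include ZKSCAN3, a repressor of autophagy genes, at 64.3 ± 15.5 (SD, n = 4) and 66.0 ± 12.4 (SD, n = 5) normalized counts, and its neighbour ZKSCAN4 at 33.8 ± 7.34 and 32.9 ± 4.82. The remaining ones are ZKSCAN5, ZSCAN5A, ZSCAN12, ZSCAN21, ZSCAN22, ZSCAN25, ZSCAN26, ZSCAN29, ZSCAN30 and ZSCAN31. The library values of the 12 ran from 17 to 315, and the clones overlapped for each.

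**Figure D3:**
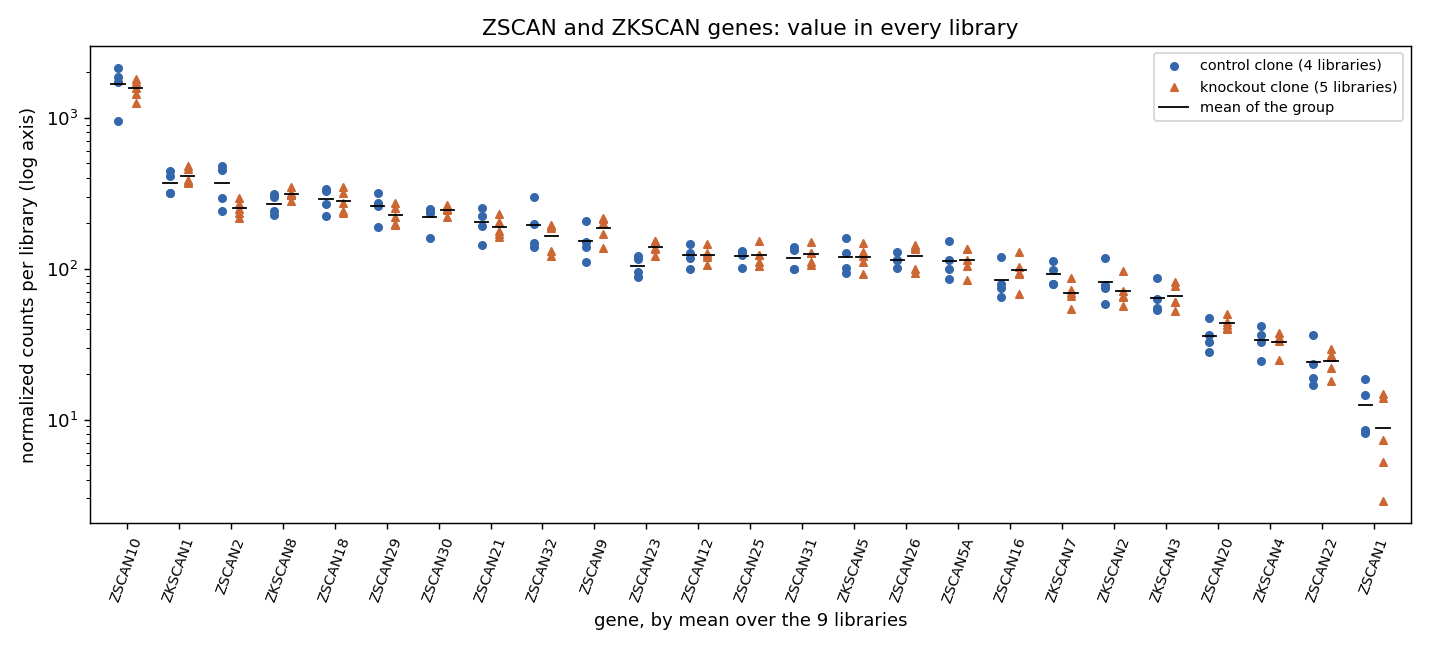
Normalized counts (log axis) of the 25 tested genes in each control library (circles) and each knockout library (triangles), with the mean of each group as a short line, ordered by mean over the 9 libraries. ZSCAN10 stands between 958 and 2149 and the clones overlap for every gene but ZSCAN23.

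The genes lie in 11 places of the genome when members up to 1 Mb apart are joined. The largest cluster holds 9 genes on chromosome 6, 28124560 to 28443502, and 4 lie together on chromosome 7 and 7 in 2 groups on chromosome 19. On chromosome 6, 8 of the 9 members had a positive log2 fold change (median 0.08, from -0.02 to 0.42) and 0 passed with limma (1 unadjusted). Over all settings tried, between 6 and 9 were positive. PGBD1, a SCAN-domain gene of another name and the 1 other coding gene tested in that interval, stood at -0.28 (SE 0.19, adjusted p by limma = 0.75). Also there lies RP5-874C20.8, a coding row that shares 9.96% of the exonic bases of ZSCAN26 and was too low to be tested. Named after its values were seen, it had 0.452 ± 0.903 (SD, n = 4) and 4.11 ± 1.87 (SD, n = 5) normalized counts, and the clones overlapped. The 4 genes on chromosome 7 had a median of 0.02 and the 3 tested genes of the larger chromosome 19 group one of -0.03.

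The values spread widely between passages. Over the 25 tested genes the coefficient of variation had a median of 22.2% over control and 15.5% over knockout libraries, and it was larger in the control clone for 22 genes. The libraries numbered 3 were high and those numbered 4 low in both clones. In control 4 and in knockout 4, 5 of the 25 members each exceeded their 9-library mean (median log2 deviation -0.27 and -0.24). In control 3 and knockout 3, 19 and 21 were above it (0.24 and 0.17). The median over all tested coding genes was 0.38 in control 3, 0.10 in knockout 3, -0.14 in control 4 and -0.20 in knockout 4. The part of RNA quality or library make-up in this was not tested. Without control 3 the median over the members was 0.09, with 20 of 25 positive, and without control 4 it was -0.02, with 11 positive.

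**Figure D4:**
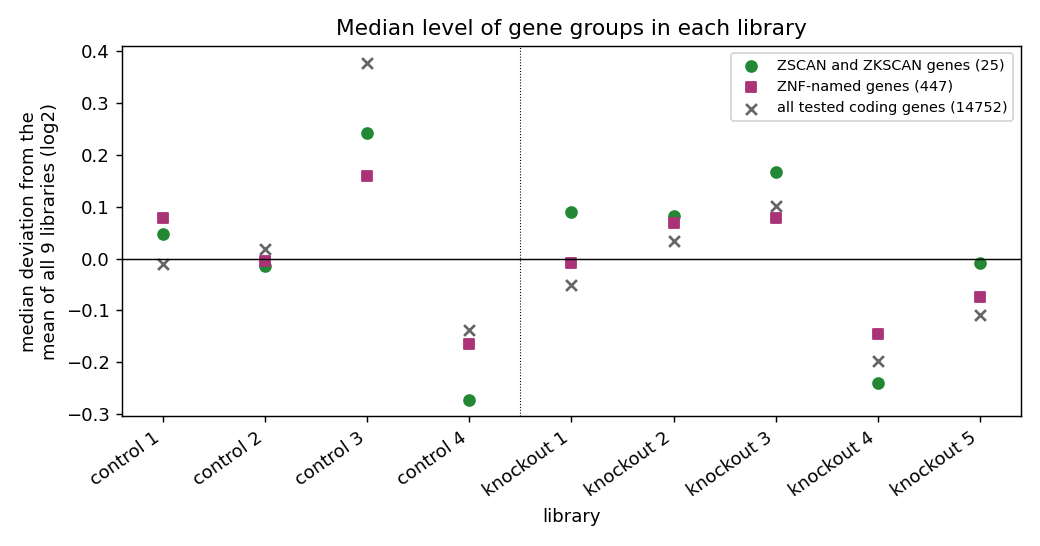
Median deviation of the 25 ZSCAN and ZKSCAN genes (circles), 447 ZNF-named genes (squares) and 14752 coding genes (crosses) from their 9-library mean in each library, in log2 units. The replicate 4 libraries of both clones are lowest for the family (-0.27 and -0.24) and control 3 is highest (0.24).

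Genes that share the SCAN domain under other names gave a similar count. Of 30 on the list 29 had a row and 28 were tested, and 0 passed with limma (0 unadjusted), edgeR or DESeq2. Their median log2 fold change was -0.11, with 7 positive and 21 negative. Over all settings tried between 5 (of 23 tested, at a minimum count of 50) and 13 (of 28) were positive. ZNF274, which targets the silencing enzyme SETDB1 to zinc finger genes, was the 1 of 28 without overlap (3.95% of all rows), at 185 ± 13.6 (SD, n = 4) and 151 ± 21.5 (SD, n = 5) normalized counts (log2 fold change -0.30, SE 0.15, adjusted p by limma = 0.65). Among the 447 tested ZNF-named genes, 8 passed limma at an adjusted p under 0.05, or 1.79%, beside 0.54% of all rows. Of these 8, 1 was higher and 7 were lower in the knockout clone.

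The corepressor and heterochromatin genes through which KRAB zinc fingers act were tested in full, 11 of 11, and 0 passed with limma (0 unadjusted), edgeR or DESeq2. Their log2 fold changes had a median of 0.10 and ran from -0.44 for DAXX, a histone chaperone, to 0.26 for its partner ATRX. TASOR, a subunit of the HUSH complex, had the smallest limma adjusted p of the list, 0.65, at 0.25 (SE 0.13).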

How the data were processed

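RNA from 4 control and 5 knockout libraries was compared, grouped by sample title. The submitters' processing notes name fastp, kallisto, DESeq2 and hg38. They give no versions or annotation, and the use of strand in counting is not stated. Each library has a signal column of normalized counts, which the authors made by dividing gene counts by a size factor. At a tolerance of 1e-06, 100% of the values were whole reads times a constant per library, and reads were recovered from this. Mean signal, log2 fold change, test score and p-values of the authors' own comparison were deposited beside them.

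Differences were tested with limma (version 3.58.1, R 4.3.3, trend option) on log2(value + 1) over all 9 libraries with group as sole term. The 27777 rows kept by filterByExpr (minimum count 10) were adjusted together by Benjamini-Hochberg at a threshold of 0.05. Low genes have their fold changes understated by the added 1. As alternatives, edgeR's quasi-likelihood test (version 4.0.16) on recovered reads called 151 rows, DESeq2 (version 1.42.0) was run, and pseudocount, filter, scaling, pairing and libraries were varied. The code was tested on simulated data.

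Positions and merged exon lengths come from GENCODE 29 (GRCh38), found for 58337 rows by Ensembl ID, and upstream sequences from RefSeq (GRCh38.p14). A count of 0 was taken to allow up to 3 reads per group, by counting error alone.

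A batch tag in the labels holds the replicate number, and pairing by it was used only in the alternative with a replicate block, not in the main test. Knockout 5 has no control of its number, so limma fold changes with the block equal those without knockout 5. Across tested rows, deviations of same-numbered libraries from the group means had correlations of 0.07, 0.02, 0.25 and 0.33 (replicates 1 to 4). Control 4 with knockout 5 (0.21) and control 3 with knockout 2 (0.13) correlated more than replicates 1 or 2 did.

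Values in every library are given for ZSCAN4, ZSCAN10, members past the threshold in limma or in the authors' table (none were), the 5 largest positive and 5 largest negative differences, and the 5 highest means. Genes named from the other lists fall outside this rule and were chosen after their values were seen. The members and lists were chosen with earlier results of these data known.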

Additional observations from a re-analysis of the deposited data

Results flagged for a closer look

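In 54 sets of 4 control or 5 knockout values, 3 had a library far from the others by Dixon's criterion, which chance gives in about 1 set of 20. ZSCAN30 measured 159 normalized counts in control 3, against 232 to 247 in the other control libraries. Without control 3 its log2 fold change was 0.02, against 0.17 with all libraries, and neither passed limma (adjusted p = 1.00 and 0.81). ZSCAN5B in knockout 4 (0.747 normalized counts) and ZSCAN5C in knockout 1 (0.958) each stand apart by a single read, with 0 reads in the other knockout libraries.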

How the results depend on the processing

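The count of 0 members past the threshold held in all 20 alternatives (smallest adjusted p = 0.27), as did 0 for the other SCAN genes and the corepressor genes. It held for the cleavage-stage genes except with DESeq2, which called 1. The median over members ran from -0.02 to 0.09 with 1 library left out and reached 0.13 when scaled on protein-coding rows, a scaling that moved the median of all rows by 0.10 to 0.11. Between 11 and 20 of 25 members were positive with 1 library left out.

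Of the 25 tested members, 12 kept their sign in every alternative and 13 did not. Among the named genes, ZSCAN10 turned positive with scaling on protein-coding rows (0.0585), quantile normalization (0.149), without control 3 and knockout 1 (0.0545), and in 3 of 9 fits with 1 library left out (-0.293 to 0.0947). ZSCAN18 turned positive with TMM (0.0113), TMM on protein-coding rows (0.0696), quantile normalization (0.0399), edgeR (0.00649) and the replicate block (0.0278). It did so too in 4 fits with 1 library left out (-0.154 to 0.0458). The fit without knockout 5 is among those 4 and has the same value as the block. ZKSCAN2 came to 0.0255 without control 3 and knockout 1 and ran from -0.329 to 0.000999 with 1 library left out, and ZSCAN32 from -0.348 to 0.0133, both highest without control 3. The cause was not tested.

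Over all rows 593 passed with DESeq2, 43 with the replicate block, 91 without control 3 and knockout 1, and 79 to 186 with 1 library left out, against 150. For ZNF-named genes these counts were 25, 2, 5 and 5 to 8, against 8. The block changed no call among the members. Few reads limit ZSCAN1, ZSCAN4, ZSCAN5B and ZSCAN5C.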
